A study of Rattus norvegicus with 46 samples.

Results

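The genes described are 8 that mark stem cells of the hair follicle: Lgr5, Lgr6, Lhx2, Sox9, Cd34, Krt15, Nfatc1 and Tcf7l2. They were chosen by symbol, and every feature of the deposited value table annotated with 1 of these symbols was taken, over all samples. 5 of the 8 had such a feature, 1 each: Lgr5 (TC0700002724.rn.2), Lhx2 (TC0300000455.rn.2), Cd34 (TC1300001097.rn.2), Krt15 (TC1000003782.rn.2) and Nfatc1 (TC1800001780.rn.2). Lgr6, Sox9 and Tcf7l2 are not analysed here. The whole table held 23188 features after control features were left out, of which 15049 carried 1 gene symbol.

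Hair follicles cycle through growth, regression and rest, and each new growth phase starts from stem cells in the bulge and the hair germ below it. In mouse follicles these cells are recognised by the surface proteins LGR5 and CD34, the keratin KRT15 and the transcription factors LHX2 and NFATC1. Quiescent bulge cells hold NFATC1, while R-spondin and Wnt signals, received in part through LGR5, accompany the start of growth. Radiation to the skin is known for hair loss and dermatitis, and new hair afterwards depends on the follicle's surviving stem cells.

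The samples were 46 arrays of full-thickness abdominal skin from 9 Sprague-Dawley rats, taken as 5 mm punch biopsies and hybridised to a rat gene expression array. In the irradiated RTA-408 arm, rats received RTA-408, an activator of the transcription factor NRF2, and electron radiation, with 3 arrays on each of days -4, 1, 3, 7 and 14. In the irradiated vehicle arm, rats received DMSO and the same radiation, again with 3 arrays a day. In the unirradiated vehicle arm, rats received DMSO and no radiation, with 2 arrays a day. Its replicate 2 was 1 rat on days -4, 1 and 3 and another, without a baseline array, on days 7 and 14. The baseline group held 6 arrays of day -10, before any injection or radiation, from 2 rats of each later arm. Drug or DMSO was injected on days -7, -5, -3 and 0, and radiation was 40 Gy of 6 MeV electrons in 4 fractions of 10 Gy, given every other day over 8 days. Day -4 therefore lay within treatment and the later days after it. No arm received RTA-408 without radiation, so an effect of the drug on unirradiated skin was not measured. The same rats were biopsied repeatedly, and the biopsies hold all cell types of the skin, so fewer cells of a type and less RNA per cell cannot be told apart. The labels give neither the rats' age nor the phase of their hair cycle.

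Values are log2 signals as the authors deposited them, so a difference of 1 is a 2-fold difference. The number of arrays limits the precision. The median of 1153 negative-control features on an array was taken as its background level and lay between 5.78 and 6.52. A group mean at or below the mean background level of its arrays gives only a bound, and a difference from it is written as "at least". Adjusted p-values come from limma with Benjamini-Hochberg adjustment over all 23188 features, with 0.05 as the threshold, and each comparison below is read beside the share of all features it called. These shares come from the fit to all arrays, and none was computed for fits with a block, weights or arrays left out. The arrays fell into 3 sets by the signals of 2 spike-in controls, and no set held both baseline arrays and arrays of days 3, 7 or 14, whereas 2 of the 3 arrays of each irradiated arm shared a set with the unirradiated arrays of the same day. Replicate 3 of the irradiated vehicle arm on day 14 had the lowest signal of all arrays for Lhx2 (4.58) and Krt15 (10.55). For Lgr5 it was the lowest of its group (4.91), but replicate 1 (10.77) lay farther from the middle array (7.24). Results that rest on replicate 3 are given with and without it. For the list counts, no other array was left out. Follicle tissue was present at baseline: the mean of 18 genes of a hair shaft and root sheath keratin list lay between 11.20 and 15.53 on the 6 baseline arrays, with 0 of the 18 at background. Beside keratins this list, called hair keratins below, names Lef1, Tchh, Padi3 and Dsg4, and Lef1 is also in the Wnt pathway list. Skeletal muscle varied between punches, its 11-gene mean spanning 6.16 to 18.14 within the baseline group, and its part in the results was not tested.

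RefSeq promoter sequences on assembly GRCr8, spanning 250 bases before to 50 after the start, were at hand for 2 of the 5 measured genes. They are shown because Lhx2 was among the genes called lower after radiation and Cd34 among those called higher, and they show what kind of promoter each has. Capitals mark CG dinucleotides, and both genes lie on the plus strand. The Lhx2 promoter (chr3:42535494-42535793) and the Cd34 promoter (chr13:109008536-109008835) read, 5′ to 3′:
Lhx2: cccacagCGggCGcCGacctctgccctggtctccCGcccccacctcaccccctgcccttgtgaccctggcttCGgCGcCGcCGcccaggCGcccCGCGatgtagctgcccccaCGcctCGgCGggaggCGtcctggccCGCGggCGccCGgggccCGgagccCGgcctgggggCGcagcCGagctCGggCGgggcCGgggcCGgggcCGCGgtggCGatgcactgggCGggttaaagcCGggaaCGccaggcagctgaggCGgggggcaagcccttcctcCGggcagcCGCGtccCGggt
Cd34: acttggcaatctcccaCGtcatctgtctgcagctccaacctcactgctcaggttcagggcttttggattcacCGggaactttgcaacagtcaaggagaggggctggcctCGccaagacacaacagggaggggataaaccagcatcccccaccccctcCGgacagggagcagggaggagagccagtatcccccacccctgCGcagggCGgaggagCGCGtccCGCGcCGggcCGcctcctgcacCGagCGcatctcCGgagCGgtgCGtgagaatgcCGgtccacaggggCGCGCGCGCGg
The Lhx2 window held 38 CG dinucleotides at 80.3% G and C, and the Cd34 window held 23 at 66.3%. Over 33469 rat promoters of the same length the median was 7 CG dinucleotides and 51.7% G and C, so both lie on the CG-rich side, Lhx2 the further. Of 4 motifs searched on both strands, neither window held CTTTGAT, the TCF/LEF motif through which Wnt signals act, which 3.63% of all promoters held. Neither held TGGAAA, the NFAT core (22.7% of all promoters), AACAAT, a SOX core (11.7%), or TAATTA, a LIM homeodomain core (5.36%). These letters are absent from these windows only.

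Lgr5, the R-spondin receptor that marks cycling stem cells of the lower bulge and hair germ in mice, had its lowest signals, mostly near background, on days 1, 3 and 7 in both irradiated arms. At baseline its log2 signal had a lowest value of 9.60, a median of 10.62 and a highest of 11.55. On day -4 Lgr5 had log2 signals of 11.16, 10.48 and 6.18 in irradiated RTA-408 skin and 7.17, 10.16 and 8.21 in irradiated vehicle skin, against 10.84 and 11.33 in unirradiated vehicle skin. The irradiated arms were split at mid-treatment, with some biopsies at the baseline level and 1 RTA-408 biopsy near background, while both unirradiated biopsies stayed high. On day 1 Lgr5 had log2 signals of 5.64, 5.74 and 6.24 in irradiated RTA-408 skin and 5.95, 5.95 and 6.03 in irradiated vehicle skin, against 7.60 and 12.23 in unirradiated vehicle skin. All 6 irradiated biopsies were near background and below both unirradiated ones, which differed widely. On day 3 Lgr5 had log2 signals of 7.10, 5.99 and 5.28 in irradiated RTA-408 skin and 6.42, 6.23 and 6.07 in irradiated vehicle skin, against 9.62 and 10.97 in unirradiated vehicle skin. On day 7 Lgr5 had log2 signals of 5.69, 6.18 and 4.82 in irradiated RTA-408 skin and 4.93, 5.36 and 4.76 in irradiated vehicle skin, against 8.51 and 7.33 in unirradiated vehicle skin. The irradiated biopsies again lay below every unirradiated one, and the unirradiated pair was itself below every baseline array, beside 16.1% of all features without overlap. On day 14 Lgr5 had log2 signals of 7.92, 6.29 and 9.40 in irradiated RTA-408 skin and 10.77, 7.24 and 4.91 in irradiated vehicle skin, against 10.55 and 9.99 in unirradiated vehicle skin. By then the irradiated arms were spread over almost the whole range of the gene, and 1 irradiated vehicle biopsy stood above both unirradiated ones.

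Against baseline, Lgr5 fell in irradiated RTA-408 skin by at least 4.49 on day 1 (adjusted p = 0.000795), at least 4.16 on day 3 (adjusted p = 0.00159) and at least 4.63 on day 7 (adjusted p = 0.000196), on the log2 scale. In irradiated vehicle skin it fell by at least 4.43 on day 1 (adjusted p = 0.00124), by 4.36 ± 0.94 (SE) on day 3 (adjusted p = 0.00214) and by at least 4.61 on day 7 (adjusted p = 6.52e-05). The irradiated and baseline arrays did not overlap on these days, beside 13.9%, 11.6% and 17.9% of all features with RTA-408 and 12.7%, 11.9% and 15.7% with vehicle. On day -4 the log2 difference from baseline was -1.33 ± 0.94 with RTA-408 (adjusted p = 0.488) and -2.09 ± 0.94 with vehicle (adjusted p = 0.163). On day 14 it was -2.73 ± 0.94 with RTA-408 (adjusted p = 0.0589) and -2.97 ± 0.94 with vehicle (adjusted p = 0.027). The vehicle call of day 14 was lost without its replicate 3, where the difference was -1.60 (adjusted p = 0.422), and also without its replicate 2 (-2.76, adjusted p = 0.102), baseline replicate 2 (-2.78, adjusted p = 0.0504) or baseline replicate 5 (-2.82, adjusted p = 0.0506). Without vehicle replicate 1, the highest array of that group, the vehicle difference was larger (-4.53, adjusted p = 0.00057). The RTA-408 difference of day 14 passed without its replicate 3 (-3.50, adjusted p = 0.0399) and without baseline replicate 4 (-2.94, adjusted p = 0.044), as it did without vehicle replicate 3 (-2.73, adjusted p = 0.0315).

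The spike-in sets bear on these falls. Within the set that held baseline and day 1 arrays together, Lgr5 was at least 4.58 lower than baseline with RTA-408 (adjusted p = 0.00415) and at least 4.43 lower with vehicle (adjusted p = 0.00844). With the set as a block, the calls of days 3 and 7 were lost. There the log2 differences were -2.52 (adjusted p = 0.46) and -3.08 (adjusted p = 0.203) with RTA-408, and -2.40 (adjusted p = 0.459) and -3.62 (adjusted p = 0.137) with vehicle. The vehicle difference of day 14 was -1.001 (adjusted p = 0.8) in that fit. The time since baseline and the set cannot be told apart.

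Against unirradiated vehicle skin of the same day, Lgr5 was not called on any day, although irradiated and unirradiated arrays did not overlap on days -4, 1, 3 and 7. On those days 41.9%, 34.3%, 28.0% and 37.0% of all features were likewise without overlap, so groups of 3 and 2 separated often. The log2 difference was -2.57 ± 1.22 on day -4 (adjusted p = 0.211), at least 3.75 lower on day 1 (adjusted p = 0.073), -4.05 ± 1.22 on day 3 (adjusted p = 0.0886), at least 1.92 lower on day 7 (adjusted p = 0.189) and -2.63 ± 1.22 on day 14 (adjusted p = 0.23). Among arrays of 1 spike-in set the difference passed on day 3 (-4.14, adjusted p = 0.0402) and day 14 (at least 3.54 lower, adjusted p = 0.00809), where that set left out vehicle replicate 1 on day 14. The day 14 difference was -1.27 without vehicle replicate 3 (adjusted p = 0.771), and the day 1 difference then passed in the shared fit (adjusted p = 0.0426). Without unirradiated replicate 1, the low array of day 1, the day 1 difference passed as well (at least 6.06 lower, adjusted p = 0.0313). A description of the other unirradiated array of day 1 names day 3, and its title, which says day 1, was followed.

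Changes within a rat could be followed in those with a baseline array. On day 1 Lgr5 was at least 4.65 and at least 5.43 lower than the same rat's baseline in RTA-408 rats and at least 3.75 and at least 3.42 lower in irradiated vehicle rats, against log2 changes of -3.71 and 1.58 in unirradiated rats. The 4 irradiated rats were thus below their own baseline on day 1, as was 1 of the 2 unirradiated rats. On day 7 Lgr5 was at least 4.63 lower in 1 RTA-408 rat and changed by -5.37 in the other, and was at least 3.89 and at least 3.55 lower in irradiated vehicle rats, against a change of -2.81 in the 1 unirradiated rat. All 5 rats were therefore below their own baseline on day 7.

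**Figure D1:**
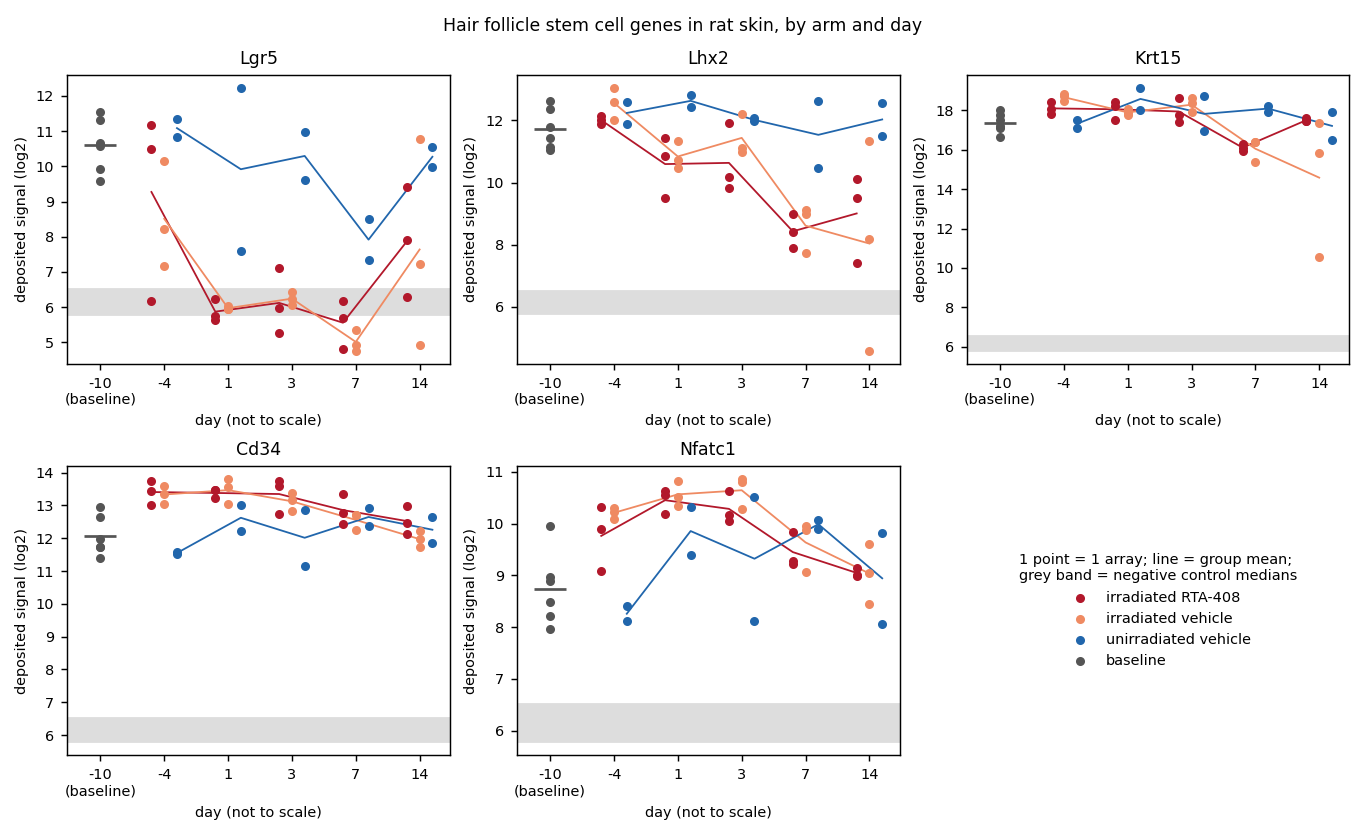
Log2 signal of Lgr5, Lhx2, Krt15, Cd34 and Nfatc1 by day, in 1 panel each; points are arrays, lines join group means, and the grey band is the range of the negative-control medians (5.78 to 6.52). Lgr5 lies in or below the band in most irradiated arrays of days 1 and 7, and irradiated arrays are low in Lhx2 on day 7.

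Lhx2, a LIM homeodomain transcription factor that keeps mouse bulge cells in the stem cell state, changed later than Lgr5. At baseline its log2 signal had a lowest value of 11.03, a median of 11.62 and a highest of 12.63. On day -4 Lhx2 had log2 signals of 11.87, 12.02 and 12.13 in irradiated RTA-408 skin and 12.61, 13.05 and 12.03 in irradiated vehicle skin, against 11.88 and 12.60 in unirradiated vehicle skin. All 3 arms were within or just above the baseline range. On day 1 Lhx2 had log2 signals of 9.49, 11.43 and 10.86 in irradiated RTA-408 skin and 10.46, 10.72 and 11.33 in irradiated vehicle skin, against 12.44 and 12.82 in unirradiated vehicle skin. On day 3 Lhx2 had log2 signals of 11.91, 9.81 and 10.18 in irradiated RTA-408 skin and 11.10, 11.00 and 12.22 in irradiated vehicle skin, against 12.06 and 11.97 in unirradiated vehicle skin. Irradiated arrays were below the unirradiated pair on day 1 and partly overlapped it on day 3. On day 7 Lhx2 had log2 signals of 7.89, 8.997 and 8.40 in irradiated RTA-408 skin and 9.11, 7.74 and 8.99 in irradiated vehicle skin, against 12.61 and 10.46 in unirradiated vehicle skin. All 6 irradiated biopsies were then below every baseline array and both unirradiated arrays of that day, beside 17.9% of all features without overlap for RTA-408 against baseline and 15.7% for vehicle. On day 14 Lhx2 had log2 signals of 9.49, 7.41 and 10.11 in irradiated RTA-408 skin and 11.34, 8.19 and 4.58 in irradiated vehicle skin, against 11.51 and 12.56 in unirradiated vehicle skin. The RTA-408 biopsies were all below baseline, beside 14.0% of all features without overlap, whereas the vehicle biopsies ran from the baseline range down to background.

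Against baseline, Lhx2 fell on days 7 and 14 in both irradiated arms. With RTA-408 the log2 differences were -3.31 ± 0.78 (adjusted p = 0.00236) and -2.73 ± 0.78 (adjusted p = 0.0186), and with vehicle -3.13 ± 0.78 (adjusted p = 0.00469) and -3.70 ± 0.78 (adjusted p = 0.000792). Differences on days -4, 1 and 3 lay between -1.14 and 0.83 and were not called. The day 14 calls each rested on 1 array: without RTA-408 replicate 2 the difference was -1.94 (adjusted p = 0.202), and without vehicle replicate 3 it was -1.97 (adjusted p = 0.0743). Without vehicle replicate 1, the highest array of its group, the vehicle difference was larger (-5.35, adjusted p = 6.18e-07). With the spike-in set as a block the differences were of the same size and not called, at -3.39 (adjusted p = 0.0916) and -2.81 (adjusted p = 0.229) with RTA-408 and -3.20 (adjusted p = 0.135) and -3.78 (adjusted p = 0.0641) with vehicle on days 7 and 14.

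Compared with unirradiated vehicle skin, irradiated vehicle skin had Lhx2 log2 differences of -1.79 ± 1.00 on day 1 (adjusted p = 0.39), -2.93 ± 1.00 on day 7 (adjusted p = 0.0932) and -3.997 ± 1.00 on day 14 (adjusted p = 0.0126), the last being called. The groups did not overlap on these days, beside 34.3%, 37.0% and 25.1% of all features. The day 14 call was lost without vehicle replicate 3 (-2.27, adjusted p = 0.184), unirradiated replicate 1 (-4.52, adjusted p = 0.0966) or unirradiated replicate 2 (-3.47, adjusted p = 0.114). It held with the set as a block (-4.02, adjusted p = 0.0133) and among arrays of 1 set (-5.65, adjusted p = 0.00523).

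Nfatc1, the calcineurin-regulated transcription factor that holds mouse bulge cells quiescent, had higher means than baseline in irradiated skin on days -4, 1 and 3. Against unirradiated vehicle skin of the same day, it was called higher in irradiated vehicle skin on day -4 only. At baseline its log2 signal had a lowest value of 7.96, a median of 8.69 and a highest of 9.94. On day -4 Nfatc1 had log2 signals of 9.08, 9.89 and 10.31 in irradiated RTA-408 skin and 10.30, 10.23 and 10.09 in irradiated vehicle skin, against 8.11 and 8.40 in unirradiated vehicle skin. Every irradiated biopsy was above both unirradiated ones, and 41.9% of all features were likewise without overlap between irradiated and unirradiated vehicle skin. On day 1 Nfatc1 had log2 signals of 10.18, 10.63 and 10.55 in irradiated RTA-408 skin and 10.52, 10.82 and 10.35 in irradiated vehicle skin, against 10.32 and 9.39 in unirradiated vehicle skin. On day 3 Nfatc1 had log2 signals of 10.63, 10.17 and 10.05 in irradiated RTA-408 skin and 10.27, 10.79 and 10.86 in irradiated vehicle skin, against 10.51 and 8.13 in unirradiated vehicle skin. All 12 irradiated biopsies of days 1 and 3 were above the highest baseline array, as was 1 unirradiated biopsy on each day. Beside this, 13.9% and 11.6% of all features with RTA-408 and 12.7% and 11.9% with vehicle had no overlap with baseline on days 1 and 3. On day 7 Nfatc1 had log2 signals of 9.22, 9.28 and 9.84 in irradiated RTA-408 skin and 9.88, 9.07 and 9.96 in irradiated vehicle skin, against 9.90 and 10.08 in unirradiated vehicle skin. On day 14 Nfatc1 had log2 signals of 9.15, 8.99 and 9.01 in irradiated RTA-408 skin and 9.04, 8.45 and 9.61 in irradiated vehicle skin, against 8.06 and 9.82 in unirradiated vehicle skin. RTA-408 skin overlapped the unirradiated pair on day 1 and irradiated vehicle skin did on day 7, while both overlapped it on days 3 and 14. On day 14 every irradiated biopsy lay within the baseline range.

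Against baseline, Nfatc1 rose on days 1 and 3 in both irradiated arms. The log2 differences were 1.71 ± 0.39 (adjusted p = 0.00346) and 1.54 ± 0.39 (adjusted p = 0.00958) with RTA-408, and 1.82 ± 0.39 (adjusted p = 0.0023) and 1.90 ± 0.39 (adjusted p = 0.00142) with vehicle. On day -4 it rose by 1.46 ± 0.39 with vehicle (adjusted p = 0.0134), while the RTA-408 difference of 1.02 ± 0.39 was not called (adjusted p = 0.128). Without vehicle replicate 1 the day -4 vehicle call was lost (1.42, adjusted p = 0.0742), and without baseline replicate 4, the highest baseline array, the RTA-408 difference passed (1.26, adjusted p = 0.0337). The RTA-408 call of day 3 was lost without replicate 1 (1.37, adjusted p = 0.0655). Within the spike-in set shared with baseline, the day 1 differences were 1.66 with RTA-408 (adjusted p = 0.0238) and 1.69 with vehicle (adjusted p = 0.0292), and the day -4 vehicle difference was 1.42 (adjusted p = 0.0671). With the set as a block the day 3 calls were lost, at 0.96 with RTA-408 (adjusted p = 0.543) and 1.31 with vehicle (adjusted p = 0.313). On days 7 and 14 the differences lay between 0.29 and 0.89 and were not called in either arm, although the day 7 vehicle difference passed without baseline replicate 4 (1.13, adjusted p = 0.0369).

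Nfatc1 also rose in irradiated against unirradiated vehicle skin on day -4, by 1.95 ± 0.51 on the log2 scale (adjusted p = 0.0164). The call was lost without either unirradiated array (1.80, adjusted p = 0.164 and 2.09, adjusted p = 0.103) and without vehicle replicate 1 (1.90, adjusted p = 0.0557). On days 1 and 3 the differences were 0.71 ± 0.51 (adjusted p = 0.555) and 1.32 ± 0.51 (adjusted p = 0.214). Without unirradiated replicate 1 of day 3, the high array of that day, the difference was 2.51 (adjusted p = 0.00757). Nfatc1 in unirradiated skin was itself 1.11 ± 0.46 above baseline on day 1 (adjusted p = 0.274) and 1.24 ± 0.46 on day 7 (adjusted p = 0.135), which were not called.

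Cd34 is a sialomucin of mouse bulge cells that endothelial cells and dermal fibroblasts also carry. In irradiated skin it had higher means than baseline on days -4, 1 and 3. Against unirradiated vehicle skin of the same day, it was called higher in irradiated vehicle skin on day -4 only. At baseline its log2 signal had a lowest value of 11.41, a median of 11.85 and a highest of 12.95. On day -4 Cd34 had log2 signals of 13.76, 13.02 and 13.45 in irradiated RTA-408 skin and 13.06, 13.36 and 13.58 in irradiated vehicle skin, against 11.57 and 11.53 in unirradiated vehicle skin. On day 1 Cd34 had log2 signals of 13.46, 13.47 and 13.22 in irradiated RTA-408 skin and 13.56, 13.04 and 13.81 in irradiated vehicle skin, against 13.02 and 12.23 in unirradiated vehicle skin. All 12 irradiated biopsies of these days exceeded every baseline array and every unirradiated biopsy of the same day, while 9.06% and 13.9% of all features with RTA-408 and 12.8% and 12.7% with vehicle had no overlap with baseline on days -4 and 1. Between irradiated and unirradiated vehicle skin the shares without overlap were 41.9% and 34.3%. On day 3 Cd34 had log2 signals of 13.74, 12.73 and 13.58 in irradiated RTA-408 skin and 12.83, 13.17 and 13.38 in irradiated vehicle skin, against 12.86 and 11.17 in unirradiated vehicle skin. On day 7 Cd34 had log2 signals of 12.77, 13.36 and 12.45 in irradiated RTA-408 skin and 12.72, 12.24 and 12.72 in irradiated vehicle skin, against 12.92 and 12.38 in unirradiated vehicle skin. On day 14 Cd34 had log2 signals of 12.98, 12.14 and 12.45 in irradiated RTA-408 skin and 12.22, 11.98 and 11.73 in irradiated vehicle skin, against 11.86 and 12.66 in unirradiated vehicle skin. The arms overlapped on days 3, 7 and 14.

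Against baseline, Cd34 rose on days -4, 1 and 3 in both irradiated arms. With RTA-408 the log2 differences were 1.34 ± 0.32 (adjusted p = 0.00932), 1.31 ± 0.32 (adjusted p = 0.00537) and 1.28 ± 0.32 (adjusted p = 0.0078). With vehicle they were 1.26 ± 0.32 (adjusted p = 0.00831), 1.40 ± 0.32 (adjusted p = 0.00373) and 1.06 ± 0.32 (adjusted p = 0.0326). The day 1 calls held without any 1 array, and within the set shared with baseline they were 1.39 (adjusted p = 0.0259) with RTA-408 and 1.61 (adjusted p = 0.0175) with vehicle. The day -4 RTA-408 call was lost without replicate 1 (1.16, adjusted p = 0.0573) or replicate 3 (1.32, adjusted p = 0.0693), and the day -4 vehicle call without replicate 3 (1.14, adjusted p = 0.0565). The day 3 RTA-408 call was lost without replicate 1 (1.09, adjusted p = 0.0689) or replicate 3 (1.16, adjusted p = 0.0636). The day 3 vehicle call was lost on leaving out any of 6 of the 9 arrays, namely vehicle replicates 2 and 3 and baseline replicates 1, 2, 3 and 6, with adjusted p up to 0.161. With the set as a block the day 3 differences were 1.44 with RTA-408 (adjusted p = 0.146) and 1.22 with vehicle (adjusted p = 0.237). The day 7 RTA-408 difference of 0.79 ± 0.32 (adjusted p = 0.0948) passed without baseline replicate 4 (0.96, adjusted p = 0.0278).

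Cd34 also rose in irradiated against unirradiated vehicle skin on day -4, by 1.78 ± 0.41 on the log2 scale (adjusted p = 0.00748). Without either unirradiated array the difference was 1.81 (adjusted p = 0.0853) or 1.76 (adjusted p = 0.0936), and among arrays of 1 set it was 1.92 (adjusted p = 0.0367). On the later days the differences were 0.84, 1.11, -0.09 and -0.29, none called, each with an SE of 0.41. Without unirradiated replicate 1 of day 3 the difference of that day passed (1.96, adjusted p = 0.0127).

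Endothelial and pericyte markers moved with Cd34. On day -4, 6 of 12 measured markers were higher in irradiated than in unirradiated vehicle skin (Pecam1, Cdh5, Tek, Emcn, Flt1 and Eng), with Cdh5, an endothelial cadherin, higher by 1.87 (adjusted p = 0.00831) and Pecam1 by 1.84 (adjusted p = 0.00623). Beside this, 3.23% of all features were higher. The mean of the 12 genes was 9.59 to 10.35 in irradiated RTA-408 skin and 9.83 to 9.88 in irradiated vehicle skin, against 8.28 to 8.85 in unirradiated vehicle skin and 9.07 to 10.35 at baseline. Against baseline, 0 of the 12 were called with RTA-408 and 2 with vehicle on day -4, when Cd34 was called in both arms. The shares of all features called were 5.79% and 10.7%. Their part in the Cd34 result was not tested.

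Krt15, a type I keratin of bulge cells that basal epidermal cells also make, had signals near the top of the arrays' range, whose highest values were 19.66 to 19.93, and with all arrays in the fit its difference was called on 1 day in 1 arm. At baseline its log2 signal had a lowest value of 16.64, a median of 17.36 and a highest of 18.02. On day -4 Krt15 had log2 signals of 17.81, 18.06 and 18.44 in irradiated RTA-408 skin and 18.73, 18.83 and 18.47 in irradiated vehicle skin, against 17.13 and 17.50 in unirradiated vehicle skin. On day 1 Krt15 had log2 signals of 17.53, 18.42 and 18.24 in irradiated RTA-408 skin and 17.88, 17.78 and 18.05 in irradiated vehicle skin, against 19.16 and 18.02 in unirradiated vehicle skin. The irradiated arms were above the unirradiated pair at mid-treatment and overlapped it on day 1. At mid-treatment 41.9% of all features were likewise without overlap between irradiated and unirradiated vehicle skin. On day 3 Krt15 had log2 signals of 18.63, 17.78 and 17.43 in irradiated RTA-408 skin and 17.91, 18.35 and 18.62 in irradiated vehicle skin, against 18.72 and 16.94 in unirradiated vehicle skin. On day 7 Krt15 had log2 signals of 16.11, 16.30 and 15.92 in irradiated RTA-408 skin and 16.38, 16.40 and 15.39 in irradiated vehicle skin, against 18.24 and 17.95 in unirradiated vehicle skin. All 6 irradiated biopsies of day 7 were below every baseline array and both unirradiated arrays of that day, beside 17.9% of all features without overlap for RTA-408 against baseline, 15.7% for vehicle against baseline and 37.0% for irradiated against unirradiated vehicle skin. On day 14 Krt15 had log2 signals of 17.45, 17.63 and 17.44 in irradiated RTA-408 skin and 17.38, 15.83 and 10.55 in irradiated vehicle skin, against 16.51 and 17.92 in unirradiated vehicle skin. The RTA-408 biopsies were near the baseline median, and 1 vehicle biopsy was far below every other array.

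Against baseline, the Krt15 log2 difference on day 7 was -1.27 ± 0.70 with RTA-408 (adjusted p = 0.257) and -1.32 ± 0.70 with vehicle (adjusted p = 0.241), not called although the arrays did not overlap. These differences had an SE of 0.36 in the fit without vehicle replicate 3 of day 14, and both then passed (adjusted p = 0.0111 with RTA-408 and 0.00899 with vehicle). On day 14 it was 0.13 ± 0.70 with RTA-408 (adjusted p = 0.938), while Krt15 fell by 2.79 ± 0.70 with vehicle (adjusted p = 0.00448). The vehicle call of day 14 rested on replicate 3: without it the difference was -0.77 (adjusted p = 0.326), and with the spike-in set as a block it was -2.48 (adjusted p = 0.197). Without vehicle replicate 1 the difference was -4.19 (adjusted p = 1.07e-05). Against unirradiated vehicle skin, Krt15 was not called on any day, with a log2 difference of -2.04 ± 0.90 on day 7 (adjusted p = 0.218) and -2.63 ± 0.90 on day 14 (adjusted p = 0.073). In the fit without vehicle replicate 3 the day 7 difference passed (adjusted p = 0.00605), and the day 14 difference was -0.61 (adjusted p = 0.72). The day 14 difference passed without vehicle replicate 1 (-4.03, adjusted p = 0.000595) or vehicle replicate 2 (-3.25, adjusted p = 0.0388), and with the set as a block (-2.87, adjusted p = 0.0449).

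Vehicle replicate 3 of day 14 also had the highest leukocyte marker mean of its group and the lowest hair keratin and adipocyte means. Its leukocyte marker mean was 11.93, against 8.30 and 9.36 on the other arrays of its group. Its hair keratin mean was 5.05, against 11.76 and 5.50, so there the array at 11.76 was the one apart. Its adipocyte mean was 9.60, against 12.56 and 10.80. Its signals for Lgr5 (4.91), Lhx2 (4.58) and Krt15 (10.55) were the lowest of its group, whereas its Cd34 (11.73) and Nfatc1 (9.61) were within the baseline range. The part of these cell types in its stem cell gene levels was not tested.

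**Figure D2:**
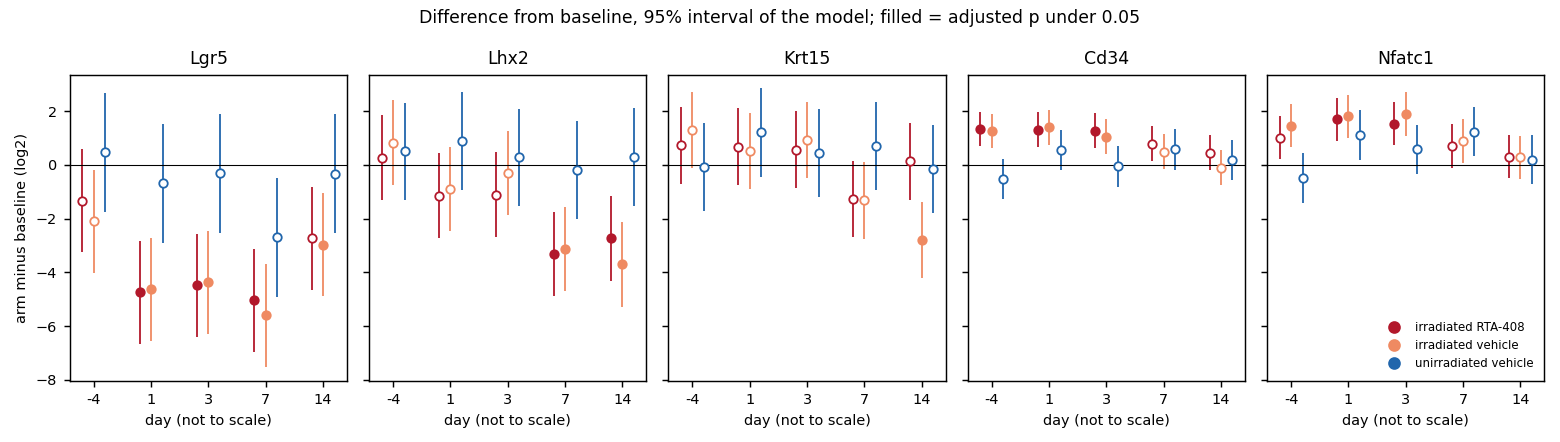
Log2 difference of each arm from baseline by day for the 5 genes; points are fitted differences, bars are 95% intervals of the limma fit, and filled points passed an adjusted p of 0.05. Lgr5, Lhx2 and Krt15 lie below 0 and Cd34 and Nfatc1 above 0 at the filled points, while unirradiated skin has no filled point.

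In irradiated RTA-408 against baseline skin, 1 of 5 was called on day -4 (Cd34 higher), beside 5.79% of all features. On day 1, 3 of 5 were called, Cd34 and Nfatc1 higher and Lgr5 lower (11.0% of all features), and on day 3 the same 3 in the same directions (9.69%). On day 7, 2 of 5 were called, Lgr5 and Lhx2 lower (15.8%), and on day 14, 1 of 5, Lhx2 lower (10.2%). On day -4 the share among the genes, 1 in 5, was within 1 gene of the background, as it was on day 14. The counts of days 3, 7 and 14 were 0 of 5 with the spike-in set as a block. Leaving out vehicle replicate 3 of day 14, 3 of 5 were called lower on day 7 and 2 of 5 on day 14.

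In irradiated vehicle against baseline skin, 2 of 5 were called on day -4, Cd34 and Nfatc1 higher (10.7% of all features). 3 of 5 were called on day 1 (9.72%) and 3 of 5 on day 3 (8.54%), Cd34 and Nfatc1 higher and Lgr5 lower. On day 7, 2 of 5 were called, Lgr5 and Lhx2 lower (14.0%), and on day 14, 3 of 5, Lgr5, Lhx2 and Krt15 lower (15.4%). Leaving out its replicate 3 of day 14, 0 of 5 were called on day 14, 3 of 5 on day 7 (Krt15 lower as well) and 3 of 5 on day -4, where Krt15 was higher by 1.30 (adjusted p = 0.0146). Here too, 0 of 5 were called on days 3, 7 and 14 with the spike-in set as a block. The median log2 difference of the 5 genes was 1.26, 0.52, 0.92, -1.32 and -2.79 over the 5 days, against medians of 0.06, 0.04, 0.05, 0.00 and -0.01 over all features. The day 14 median was -0.77 without vehicle replicate 3. Both irradiated arms were set against the same 6 baseline arrays, so these counts are not independent of each other.

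In irradiated against unirradiated vehicle skin, 2 of 5 were called on day -4, Cd34 and Nfatc1 higher (7.42% of all features). No gene of the 5 was called by limma on day 1 (2.10%), day 3 (1.30%) or day 7 (4.02%), where 2, 3 and 3 had an unadjusted p under 0.05, beside 16.4%, 13.6% and 17.9% of all features. On day 14, 1 of 5 was called, Lhx2 lower (6.96%), close to the background share. Leaving out vehicle replicate 3 of day 14, 1 of 5 was called on day 1 (Lgr5), 2 on day 7 (Lhx2, adjusted p = 0.0151, and Krt15), all lower, and 0 on day 14. In unirradiated vehicle against baseline skin, 0 of 5 were called on any day, beside 0.0173%, 0.315%, 0%, 2.71% and 0% of all features on days -4, 1, 3, 7 and 14. Nfatc1 on day 1 (13.5% of all features) and Lgr5 and Nfatc1 on day 7 (17.4%) had an unadjusted p under 0.05, Lgr5 with a log2 difference of -2.69 ± 1.09 (adjusted p = 0.185).

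RTA-408 was compared with vehicle in irradiated skin of the same day, the question being whether the NRF2 activator altered these genes. 0 of 5 were called on each of the 5 days, beside 0.0474%, 0.0733%, 0.00431%, 0% and 0% of all features, which were 11, 17, 1, 0 and 0 features. Only Krt15 on day 14 had an unadjusted p under 0.05 among the 5 genes, against 613 of all features on day 7 and 2904, or 12.5%, on day 14. Krt15 on day 14 had a log2 difference of 2.92, with a 95% interval of 1.28 to 4.56 (adjusted p = 0.193), and the 3 RTA-408 arrays lay above the 3 vehicle arrays; groups were likewise without overlap, in either direction, for 12.2% of all features. On days -4, 1, 3 and 7 the Krt15 differences were -0.57, 0.16, -0.35 and 0.06, and on day -4 the 3 RTA-408 arrays lay below the 3 vehicle arrays, beside 9.57% of all features without overlap. Without vehicle replicate 3 the Krt15 difference was 0.91, and without vehicle replicate 1 it was 4.32 (adjusted p = 0.000899). Among the arrays of 1 spike-in set it was 4.26 (adjusted p = 0.216).

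The other genes had wide intervals between the drug arms. Lgr5 differed by 0.76 on day -4, with a 95% interval of -1.45 to 2.98, and by 0.23 on day 14. Over the arrays left out in turn these ran between -0.18 and 2.31 and between -1.13 and 1.79. On days 1, 3 and 7 its mean was at background in the RTA-408 arm, and on days 1 and 7 in the vehicle arm too, so no difference could be measured there. Lhx2 differed by -0.55, -0.24, -0.80, -0.18 and 0.97 over the 5 days, the last with an interval of -0.85 to 2.79 that rested on the spread of the vehicle arrays. Without vehicle replicate 1 the Lhx2 difference of day 14 was 2.62 (adjusted p = 0.0403), and over the arrays left out in turn it ran between -0.76 and 2.62. Cd34 differed by 0.08, -0.09, 0.22, 0.30 and 0.55, the last with an interval of -0.20 to 1.30 (adjusted p = 0.555). Nfatc1 differed by -0.45, -0.11, -0.36, -0.19 and 0.01. These intervals hold differences of more than 2-fold either way for Lgr5 on day -4, and so do not show that the arms were alike.

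Means over the 5 days of each rat gave 3 RTA-408 and 3 irradiated vehicle rats, for which the smallest two-sided p of an exact permutation test is 0.1. The RTA-408 minus vehicle difference was 0.26 for Lgr5 (exact p = 0.7), -0.16 for Lhx2 (exact p = 0.8), 0.21 for Cd34 (exact p = 0.3), 0.44 for Krt15 (exact p = 0.5) and -0.22 for Nfatc1 (exact p = 0.2). In limma on these rat means 0 of 5 were called, beside 0% of all features, of which 790 had an unadjusted p under 0.05. None of the 5 reached the smallest p that this design allows.

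**Figure D3:**
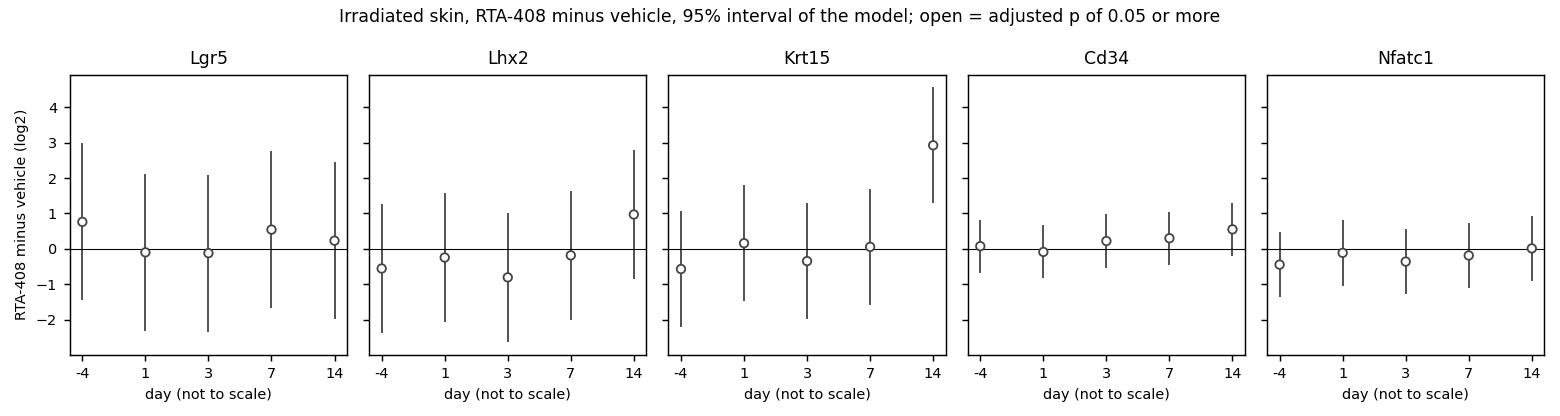
Log2 difference between irradiated RTA-408 and irradiated vehicle skin by day for the 5 genes; points are fitted differences and bars are 95% intervals of the limma fit. All points are open, since none passed an adjusted p of 0.05; Krt15 on day 14, at 2.92, lies farthest from 0.

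Change over the 5 days within an arm was tested with moderated F-tests. In the irradiated RTA-408 arm 1 of 5 genes changed with day, Lhx2 (adjusted p = 0.0436), beside 6.26% of all features, and the call was lost on leaving out any replicate number (adjusted p of 0.202 to 0.252), while Lgr5 passed without number 3 (adjusted p = 0.0497). In the irradiated vehicle arm 4 of 5 changed, Krt15 (adjusted p = 0.00128), Lhx2 (adjusted p = 0.0013), Cd34 (adjusted p = 0.0161) and Nfatc1 (adjusted p = 0.0427), beside 14.2% of all features. Lgr5, already low on day 1 and spread on day 14, had an adjusted p of 0.108. Lhx2 and Krt15 held on leaving out any replicate number, whereas Cd34 (adjusted p = 0.0518 to 0.334) and Nfatc1 (adjusted p = 0.129 to 0.509) did not. In unirradiated vehicle skin 0 of 5 changed (adjusted p of 0.223 to 0.967), beside 1.13% of all features. The drug difference changed over the days for 0 of 5 genes, with a lowest adjusted p of 0.949, beside 0.0129% of all features. The radiation difference, tested after the data were seen, changed for 0 of 5 (adjusted p of 0.107 to 0.933), beside 2.16% of all features.

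Ordered by group mean, Lgr5 ran between 11.08 ± 0.35 (SD, n = 2) in unirradiated skin of day -4 and 5.02 ± 0.31 (SD, n = 3) in irradiated vehicle skin of day 7. Lhx2 ran between 12.63 ± 0.27 (SD, n = 2) in unirradiated skin of day 1 and 8.04 ± 3.38 (SD, n = 3) in irradiated vehicle skin of day 14. For both genes every group overlapped its neighbour in that order. Cd34 ran between 13.47 ± 0.39 (SD, n = 3) in irradiated vehicle skin of day 1 and 11.55 ± 0.03 (SD, n = 2) in unirradiated skin of day -4, and only this lowest group was apart from its neighbour. Nfatc1 was highest in irradiated vehicle skin of day 3, at 10.64 ± 0.32 (SD, n = 3), and lowest in unirradiated skin of day -4, at 8.26 ± 0.21 (SD, n = 2). Krt15 was highest in irradiated vehicle skin of day -4, at 18.68 ± 0.18 (SD, n = 3). Its 3 lowest means were 16.11 ± 0.19 in RTA-408 skin of day 7, 16.05 ± 0.57 in irradiated vehicle skin of day 7 and 14.59 ± 3.58 in irradiated vehicle skin of day 14 (SD, n = 3 each), with the first of them apart from the group above it.

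The likeness of the genes over the 46 arrays is given as Pearson's r, a description over arrays of 9 rats that share normalization and rats. Cd34 and Nfatc1 had r = 0.79, and r = 0.56 for deviations from group means. Lhx2 and Krt15 had r = 0.78, and r = 0.77 for deviations. The lowest array of Lhx2 and Krt15 bore on these values. Over the 45 arrays without vehicle replicate 3 of day 14, Lhx2 and Krt15 had r = 0.69 and r = 0.53 for deviations, and Cd34 and Nfatc1 had r = 0.81 and 0.61. Without it Krt15 and Nfatc1 had r = 0.57 and 0.70 for deviations, against 0.37 and 0.15 with it, and Krt15 and Cd34 had 0.47 and 0.54. Krt15 was thus at least as close to Nfatc1 and Cd34 as to Lhx2 in its deviations on those 45 arrays. Lgr5 followed Lhx2 with r = 0.62 and ran opposite to Nfatc1 with r = -0.59. Lhx2 had little relation to Cd34 (r = 0.15) or Nfatc1 (r = 0.10), and Lgr5 little to Krt15 (r = 0.24). The 5 genes therefore did not share 1 pattern over these biopsies.

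Of all named features, those most like Lgr5 were Gpr37 (r = 0.939), an orphan receptor, Krt73 (r = 0.936), a keratin of the inner root sheath, and Dlx3 (r = 0.935), a homeobox factor of hair differentiation. Most like Lhx2 were Nfib (r = 0.941), a transcription factor, Efnb2 (r = 0.927), the membrane ligand ephrin-B2, and Phyhip (r = 0.924). Most like Nfatc1 were Plec (r = 0.927), which encodes the cytoskeletal linker plectin, Ppp3ca (r = 0.894), a catalytic subunit of calcineurin, and Klf9 (r = 0.887). Most like Cd34 were Cavin1 (r = 0.910), a caveolar coat protein, Ehd2 (r = 0.887), an ATPase of caveolae, and Gsn (r = 0.874), which encodes the actin-severing gelsolin. Most like Krt15 were Tfap2b (r = 0.925), a transcription factor, Net1 (r = 0.912) and Tacc2 (r = 0.907).

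Hair shaft and root sheath keratins moved with Lgr5, with r = 0.92 between Lgr5 and the mean of the 18 genes and r = 0.86 for deviations from group means. Against baseline, 8, 18, 18, 18 and 16 of 18 were lower with RTA-408, and 14, 18, 18, 18 and 18 with vehicle, on days -4, 1, 3, 7 and 14. The mean of the 18 on day 7 was 5.49 to 5.69 in RTA-408 skin, 5.30 to 5.40 in irradiated vehicle skin and 5.67 to 7.47 in unirradiated skin, against 11.20 to 15.53 at baseline. On that day 12, 15 and 8 of the 18 group means were at background in the 3 arms. In unirradiated against baseline skin, 14 of the 18 were lower on day 7, beside 1.85% of all features, and 0 on the other days. Lgr5 in that skin of day 7 was also below every baseline array, beside 16.1% of all features without overlap, but its difference was not called. Their part in the Lgr5 result was not tested.

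Without vehicle replicate 3 of day 14, 10 of the 18 hair keratins were lower than baseline on that day. With the spike-in set as a block, the numbers lower on the 5 days were 3, 16, 0, 4 and 0 with RTA-408 and 12, 16, 0, 3 and 2 with vehicle. Against unirradiated vehicle skin of the same day, 13, 2, 10, 0 and 11 of the 18 were lower in irradiated vehicle skin, the last falling to 1 without vehicle replicate 3.

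Of 16 genes of follicle growth and of the hair matrix, the dividing cells that make the shaft, 3, 7, 7, 7 and 4 were lower than baseline with RTA-408 and 5, 7, 7, 8 and 5 with vehicle over the 5 days, the last falling to 3 without vehicle replicate 3. Dlx3 fell by 6.18 on day 1 (adjusted p = 0.000297) and Msx2, a homeobox factor of the matrix, by 5.34 on day 7 (adjusted p = 0.00011) in irradiated vehicle skin. Foxn1, the factor missing in nude mice, fell by 5.94 against unirradiated skin on day -4 (adjusted p = 0.00279). The r of Lgr5 with the mean of this list was 0.89. In unirradiated against baseline skin, 4 of the 16 were lower on day 7, namely Msx2, Foxn1, Dlx3 and Trps1.

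**Figure D4:**
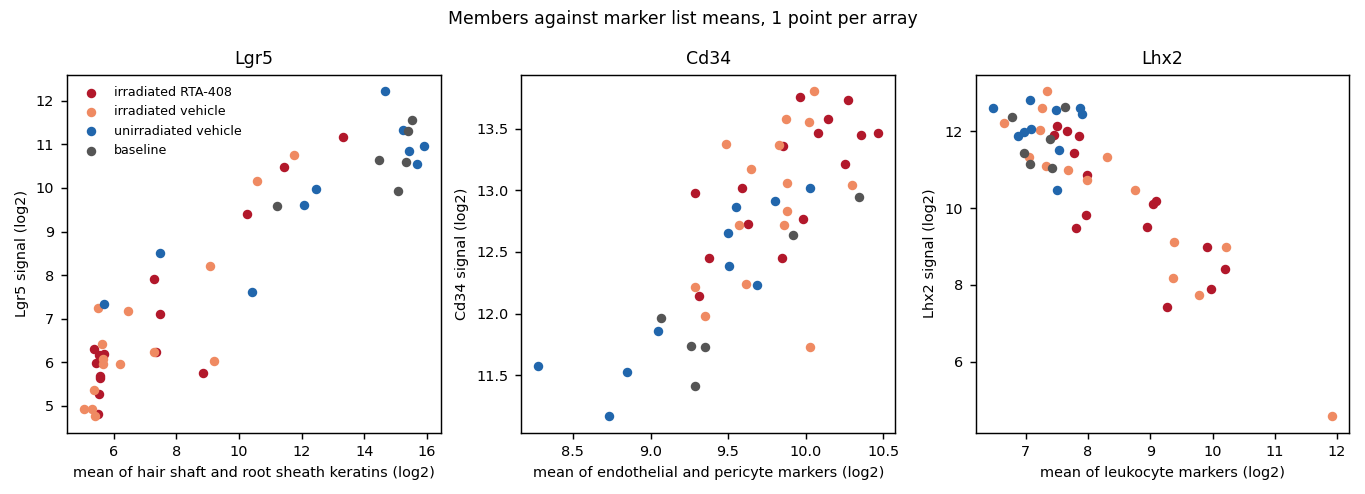
Log2 signal of Lgr5 against the mean of the hair keratin list, of Cd34 against the mean of the endothelial and pericyte list and of Lhx2 against the mean of the leukocyte list, 1 point per array and marked by arm. Lgr5 rises with the hair keratins (r = 0.92), Cd34 with the endothelial and pericyte markers (r = 0.76), and Lhx2 is low where leukocyte markers are high (r = -0.89, and -0.85 without the lowest array).

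Of the R-spondin and Wnt pathway, in which Lgr5 is a receptor for R-spondins, 23 of 26 listed genes were measured. Against baseline, 2, 2, 1, 1 and 0 were higher and 2, 8, 4, 9 and 6 lower with RTA-408 over the 5 days. With vehicle, 1, 1, 1, 2 and 2 were higher and 2, 4, 5, 8 and 7 lower, the day 14 numbers falling to 0 and 2 without vehicle replicate 3. Against unirradiated vehicle skin, 5 were lower on day -4: Wnt4, Wnt5a, Wnt10b, Lef1 and Notum. Lef1, the nuclear partner of beta-catenin in the hair matrix, fell by 6.10 (adjusted p = 0.00537), and Wnt5a, a ligand of the dermal papilla in mice, by 2.85 (adjusted p = 0.0194). Sfrp2 went the other way, higher than baseline by 3.85 on day 14 with vehicle (adjusted p = 0.00155), with an SD of 4.01 in that group.

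Of 20 other listed genes of follicle stem cells, 15 were measured. Against baseline, 1, 3, 3, 1 and 0 were higher and 0, 3, 2, 3 and 4 lower with RTA-408, and 5, 3, 3, 1 and 0 higher and 1, 2, 1, 4 and 3 lower with vehicle. Of all features, 4.22%, 6.17%, 5.33%, 9.12% and 5.53% were higher and 1.57%, 4.79%, 4.36%, 6.67% and 4.71% lower with RTA-408. With vehicle, 6.46%, 5.08%, 4.57%, 7.92% and 9.47% were higher and 4.26%, 4.65%, 3.97%, 6.06% and 5.96% lower. These shares also stand beside the baseline counts of the other lists. For irradiated against unirradiated vehicle skin, 3.23% of all features were higher on day -4. There 4.19%, 0.901%, 0.647%, 1.33% and 2.53% were lower over the 5 days. In irradiated against unirradiated vehicle skin on day -4, 3 rose: Itga6, the integrin of the basal surface, by 1.21 (adjusted p = 0.00542), Fgf18, a growth factor of the resting bulge in mice, by 2.66 (adjusted p = 0.00748), and Krt24 by 1.77 (adjusted p = 0.047). On day 14, 2 fell: Lgr4, a second R-spondin receptor, by 2.31 (adjusted p = 0.0109), and Foxc1, a transcription factor of quiescent bulge cells in mice, by 1.65 (adjusted p = 0.000975). Without vehicle replicate 3, 1 of the 15 was lower on day 14. With the spike-in set as a block, the calls against baseline on day 3 numbered 0 for this list, for the Wnt list and for the hair matrix list in both irradiated arms, and the calls lower on days 7 and 14 numbered 0 to 2 for each. Lhx2 followed the mean of the 15 genes with r = 0.84.

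Of 7 measured basal layer genes, 4, 3, 4, 4 and 4 were higher than baseline in irradiated vehicle skin over the 5 days. Beside this, 6.46%, 5.08%, 4.57%, 7.92% and 9.47% of all features were higher. Krt14, the basal keratin, rose by 2.16 on day 7 (adjusted p = 1.73e-07), when Krt15 had a log2 difference of -1.32 that was not called. Itgb4, the hemidesmosome integrin, rose by 2.77 against unirradiated vehicle skin on day -4 (adjusted p = 1.22e-05). Cldn1 went the other way against unirradiated vehicle skin on day 14, lower by 2.37 (adjusted p = 0.00575), with an SD of 1.92 in the irradiated group. With the spike-in set as a block, the counts against baseline of days 3, 7 and 14 were 1, 2 and 1.

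Leukocyte markers were high where Lhx2 was low. Of 14 measured markers, 9 and 8 were higher than baseline with RTA-408 on days 7 and 14, and 9 and 10 with vehicle, the last falling to 6 without vehicle replicate 3. Of all features, 9.12% and 5.53% were higher on these days with RTA-408 and 7.92% and 9.47% with vehicle. S100a9 and S100a8, the calprotectin subunits of neutrophils that stressed keratinocytes also make, rose by 8.56 (adjusted p = 9.45e-06) and 7.25 (adjusted p = 1.94e-05) on day 7 with vehicle. The mean of the 14 on day 7 was 9.92 to 10.21 in RTA-408 skin and 9.38 to 10.21 in irradiated vehicle skin, against 7.49 to 7.87 in unirradiated skin. On day 14 it was 8.94 to 9.27 in RTA-408 skin and 8.30 to 11.93 in irradiated vehicle skin, against 7.49 to 7.53 in unirradiated skin and 6.78 to 7.63 at baseline. Krt15 in the same RTA-408 skin of day 14 was 17.44 to 17.63, near its baseline median. Between 3 and 5 of the 14 group means were at background in any group. The r with this mean was -0.89 for Lhx2 and -0.73 for Krt15, and -0.69 and -0.72 for deviations from group means. Without vehicle replicate 3 of day 14 these were -0.85 and -0.63, and -0.41 and -0.25 for deviations. With the spike-in set as a block, 3 and 0 of the 14 were higher than baseline on days 7 and 14 with RTA-408 and 3 and 4 with vehicle. The part of leukocytes in the Lhx2 and Krt15 results was not tested.

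Cell division genes were low at the same time as Nfatc1 was high. Of 11 measured, 10 were lower in irradiated than in unirradiated vehicle skin on day -4, beside 4.19% of all features. Mki67 was lower by 3.69 on the log2 scale (adjusted p = 0.00616). Against baseline, 6, 7, 3, 0 and 0 were lower with RTA-408 and 9, 7, 3, 0 and 0 with vehicle over the 5 days. The day 1 low was not particular to irradiated skin. The mean of the 11 was then 7.88 in unirradiated vehicle skin, 7.96 in irradiated vehicle skin and 7.72 in RTA-408 skin, against 9.27 at baseline. The r of Nfatc1 with this mean was -0.74, and -0.49 for deviations from group means. Nfatc1 also followed the endothelial and pericyte mean, with r = 0.74 and 0.66 for deviations, and its part in the Nfatc1 result was not tested. Of the remaining lists, 4 of 11 sebaceous genes were lower in irradiated than in unirradiated vehicle skin on day 14, beside 2.53% of all features, and none without vehicle replicate 3. Against baseline, 2, 2, 1, 5 and 6 of 11 fibroblast genes were higher in irradiated vehicle skin over the 5 days, the last falling to 2 without vehicle replicate 3. Of 5 spinous, granular and wound keratinocyte genes, 3 were higher than baseline on day 7 in each irradiated arm, Krt1, Krt17 and Cnfn. On day 14, 5 of 7 adipocyte genes were lower there (1 without vehicle replicate 3), and none of 11 skeletal muscle genes was called in any comparison.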

How the data were processed

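Gene expression was measured on 46 one-colour rat Clariom S arrays, biotin-labelled with the GeneChip WT Plus kit, per the labels' protocols. The authors deposited 1 log2 signal per feature and array, and their normalization and summarization are not given in the sources used here. Array medians lay between 6.84 and 6.95, and arrays of 1 group correlated at 0.927 to 0.990. From 24834 features, 1646 controls were left out. Gene names came from the platform annotation; 8139 features had no symbol and none of the named genes had more than 1 feature. Differences and F-tests came from limma 3.58.1 in R 4.3.3, with 1 mean for each of 16 groups, 30 residual degrees of freedom, empirical Bayes moderation and Benjamini-Hochberg adjustment over 23188 features. The script was tested on simulated data.

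Separate arrays of a group came from different rats. Rats recurred over days, and arrays of 1 rat on different days deviated from their group means with a median r of 0.02 over 102 pairs, against -0.02 over 146 pairs of different rats. Rat as a random block is therefore an alternative. The spike-in sets held 18, 10 and 18 arrays. The genes and the 13 marker lists (161 of 202 entries measured) were chosen with earlier results of these data known. Genes named from a list were among its 3 with the largest absolute difference called in irradiated vehicle skin, or belonged to a small count and were then chosen after their values were seen; the 3 features with the highest r with a gene are named as most alike. Alternatives were array weights, quantile normalization, a filter on dim features, blocks, the compared groups alone and leaving out each array. Intervals are 95%.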

Additional observations from a re-analysis of the deposited data

How the results depend on the processing

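Leaving arrays out apart, 915 of 970 recomputed differences kept their side of the threshold, 26 lost the call and 29 gained one. Most of the 970 were of differences not called in the main fit, so the 915 say little of how the calls held. The spike-in set as a block gave 14 of the 26 lost calls. 25 of the 970 turned sign, none of them past the threshold. Quantile normalization and rat as a random replicate block (correlation 0.00672) changed no count of genes called. With the label's replicate number as a fixed block, the numbers called of 5 became 2 for RTA-408 against baseline on day -4, 0 on day 14, 1 for unirradiated against baseline skin on day 7 and 0 for change over days with RTA-408.

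With array weights, 1 and 2 genes were called for irradiated against unirradiated vehicle skin on days 1 and 7, 4 for vehicle against baseline on day -4, and 2, 4 and 2 for RTA-408 against baseline on days -4, 7 and 14. That fit also called 1 for unirradiated against baseline skin on day 7, and 4, 1 and 3 for change over days with RTA-408, in unirradiated skin and in the radiation difference. With only the compared groups fitted, irradiated against unirradiated skin gave 1, 3 and 0 on days 3, 7 and 14, vehicle against baseline 0 on day 14, and RTA-408 against baseline 0 on day -4 and 2 on day 14. With the spike-in set as a block, both irradiated arms against baseline gave 0 on days 3, 7 and 14, irradiated against unirradiated skin 2 on day 14, and change over days with RTA-408 0. Within the set that holds the baseline, day -4 gave 1 for irradiated against unirradiated skin, 1 for vehicle and 0 for RTA-408 against baseline. Within the set of the later days, irradiated against unirradiated skin gave 1 on day 3 and 2 on day 14. Without the 5797 dimmest features, RTA-408 against baseline gave 2 on day 14.

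Leaving out each array of the groups compared in turn, irradiated vehicle against baseline gave 1 to 2, 3 to 3, 2 to 3, 2 to 3 and 0 to 3 genes on days -4, 1, 3, 7 and 14, and RTA-408 against baseline 0 to 2, 3 to 3, 1 to 3, 2 to 3 and 0 to 2. Irradiated against unirradiated skin gave 0 to 2, 0 to 1, 0 to 2, 0 to 0 and 0 to 3. The drug comparison gave 0 to 2 on day 14 and 0 on other days, and unirradiated against baseline skin 0 to 1 on day 7 and 0 on other days. Change over days gave 0 to 1 with RTA-408, 2 to 2 with vehicle, 0 to 1 in unirradiated skin and 0 to 2 for the radiation difference. The causes of these shifts were not tested. No share of all features called was computed for these fits, so their counts cannot be set beside a background share. The list counts without replicate 3 or with the set block, the genes' values in every comparison without it, and the radiation difference over days, were added after seeing the data. Signal over background limits Lgr5, since its irradiated means of days 1 and 7 and its RTA-408 mean of day 3 were at background.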
